A study of Rattus norvegicus with 24 samples.

Results

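Peripheral blood mononuclear cells of arthritic rats given mechanical stimulation with a needle (MS) were compared with those of healthy rats (NOCIA) after 34 days of therapy. The comparison rests on 4 of the 24 arrays of the series, the 2 labelled as acupuncture-treated at 34 days and the 2 labelled as normal rats of the same day, chosen by their titles and not by any measured value. All animals were female Wistar rats, of an age that the sources used here do not state. The blood draw was total and terminal, and each array was taken to hold the mononuclear cells of a separate rat. Whether samples were pooled is not stated. MS rats had collagen-induced arthritis (CIA), raised by bovine type II collagen in complete Freund's adjuvant with a booster in incomplete adjuvant, and therapy began when the paws had become visibly arthritic. They were stimulated by puncture and twirling of a short steel needle on both sides of the lower back and below the knee. NOCIA rats were not immunised and not needled, and every rat of the study was shaved at the points of stimulation. The arthritis and the needling thus differed together between MS and NOCIA, and their parts cannot be told apart in this comparison alone. Arthritic rats of the same day that had received intraperitoneal saline (PLA), weekly intraperitoneal methotrexate (MTX) or no therapy (ANE) are therefore given beside it, with 2 arrays each. Blood was drawn under ether in MS, PLA and MTX and under isoflurane in ANE, and the sources used here do not state the agent for NOCIA.

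Collagen-induced arthritis is driven by T and B cells that recognise type II collagen and by monocytes and neutrophils that release IL-1, TNF and chemokines into the joint. The blood carries these cells past the joint, and a Ficoll gradient enriches its lymphocytes and monocytes while removing most granulocytes and red cells. NF-kB, a family of transcription factors held in the cytoplasm by inhibitors such as the product of Nfkbia, switches on many of the cytokine genes when a receptor is engaged. In bulk RNA of such cells, fewer cells of a type and less RNA per cell cannot be told apart.

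The labelled cell population was checked by its markers on the 4 arrays. On all 4, 19 of 21 measured T cell markers lay above the array's own 40th percentile, as did 21 of 22 of NK and cytotoxic cells, 14 of 14 of B cells and 24 of 26 of monocytes. Platelet markers were above it too, in 29 of 30 genes. So were markers that the gradient should reduce, with 19 of 19 erythroid and 8 of 13 neutrophil genes. The difference between the 3' and 5' probe sets of Gapdh, a sign of RNA breakdown, lay between 0.09 and 0.14 (log2) on the 4 arrays. That of Actb moved with the groups: it was 0.36 and 0.36 in MS and 0.65 and 0.64 in NOCIA, with the other arms of day 34 between 0.37 and 0.55 and the other healthy arrays between 0.54 and 0.84. Its part in the differences below was not tested.

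The MS arrays stood at very different distances from the healthy ones. Over 11061 genes the array MS replicate 1 ran from -1.61 to 1.64 around the NOCIA mean between its 5th and 95th percentile (log2 differences), whereas MS replicate 2 ran from -0.64 to 0.51. The PLA arrays ran from -0.70 to 0.62 and from -0.77 to 0.67, so that MS replicate 2 lay no farther from healthy rats than saline-treated rats did. Replicate 1 minus replicate 2 had an SD over genes of 0.835 for MS against 0.309 for NOCIA, 0.278 for PLA, 0.407 for MTX and 0.34 for ANE. Values of both MS arrays are therefore given separately, and a difference is read by what MS replicate 2 shows as well as by the mean.

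**Figure D1:**
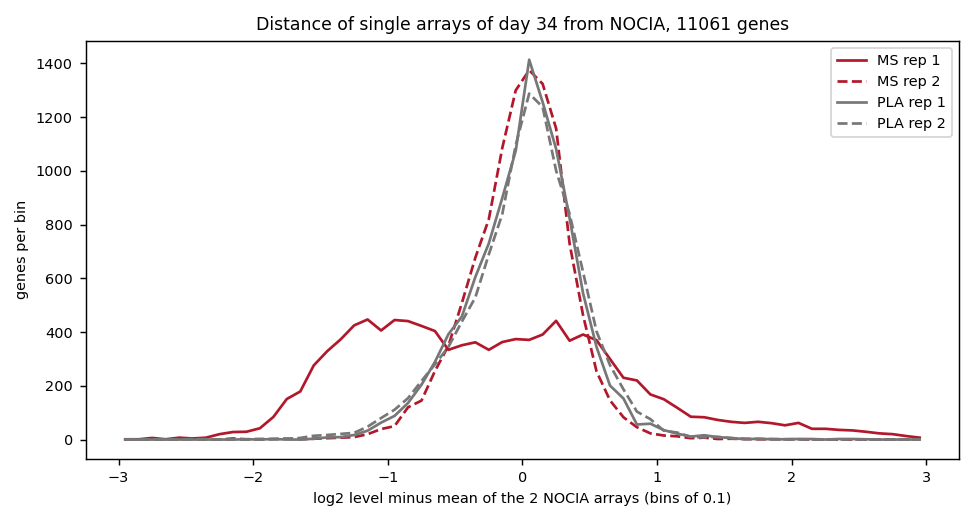
Distribution over 11061 genes of the log2 level of single day-34 arrays minus the mean of the 2 NOCIA arrays, counted in bins of 0.1, for MS (red) and PLA (grey). MS replicate 1 forms a broad distribution with a median of -0.31, while MS replicate 2 has a median of 0.01 and overlies the PLA arrays.

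At the level of single transcripts, 3 of 20709 probe sets (0.0145%) were called at an adjusted p under 0.05 in limma over all 24 arrays, all 3 lower in MS, while 5935 had an unadjusted p under 0.05. At the study's own thresholds, an unadjusted p under 0.05 and a fold change over 2, 546 probe sets (2.64%) were higher in MS and 1222 (5.9%) lower, which makes 30.9% of them higher. Quantile normalization moved the median difference of all genes from -0.142 to -0.039 and the share higher to 47.6%, with 678 higher and 746 lower. Without MS replicate 1 the calls numbered 1 and the study's thresholds left 24 higher and 151 lower, whereas without MS replicate 2 they numbered 9123. An exact permutation test of 2 arrays against 2 cannot go below p = 0.333, so that every p-value here rests on the spread pooled over the 12 groups.

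The called transcripts were Mid2, Nol10 and a probe set without a gene symbol. Mid2 encodes a microtubule-associated ubiquitin ligase of the TRIM family. It was at 6.55 and 6.56 in NOCIA and at 5.30 and 5.33 in MS (log2 levels), 2.36-fold lower (log2 difference -1.24 ± 0.13 SE, n = 2 and 2, limma adjusted p = 0.00162). Both MS arrays lay well below both NOCIA arrays, and the call held without MS replicate 1 (limma adjusted p = 0.0233), while it was lost when only the compared groups (adjusted p = 0.476) or only day 34 (adjusted p = 0.13) were fitted and with array weights (adjusted p = 0.386). Nol10, a nucleolar protein that takes part in maturation of the small ribosomal subunit, was at 9.25 and 9.07 in NOCIA and at 7.82 and 8.30 in MS (log2 difference -1.10 ± 0.16, limma adjusted p = 0.0413). This call was lost without MS replicate 1 (adjusted p = 0.617), without NOCIA replicate 1 (adjusted p = 0.486) and without NOCIA replicate 2 (adjusted p = 0.109). It was also lost with the replicate block (adjusted p = 0.0693), the stricter filter (0.076), quantile normalization (0.0723, log2 difference -0.77), limma-trend with robust eBayes (0.0592), without the 4 arrays that earlier results had shown apart (0.0974) and in the 3 settings in which Mid2 was lost. The unnamed probe set 1384963_at was at 6.69 and 6.19 in NOCIA and at 4.77 and 4.93 in MS (log2 difference -1.59 ± 0.20, limma adjusted p = 0.00728), with an adjusted p of 0.184 without MS replicate 1 and of 0.142 without NOCIA replicate 1. It was lost too in the 3 settings in which Mid2 was lost and without the 4 arrays (adjusted p = 0.0857).

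For all 3 transcripts the arrays that departed from the series were the healthy ones of day 34. Mid2 lay between 4.47 and 5.06 on the other 20 arrays, and on the 4 healthy arrays of baseline and 1 h between 4.47 and 4.63, so that both MS arrays were above every array other than the day-34 NOCIA pair. Nol10 lay between 7.70 and 8.34 on the other 20 arrays, a range that held both MS arrays. 1384963_at lay between 4.74 and 5.99 on these arrays, a range that again held both MS arrays. The healthy rats of day 34 were thus higher than healthy rats of the earlier times, and the other arthritic arms lay on the side of MS. For Mid2 PLA was at 5.06 and 5.05, MTX at 5.00 and 4.87 and ANE at 4.58 and 4.66, all below both MS arrays. For 1384963_at these arms lay between 5.08 and 5.45, all above both MS arrays, and for Nol10 between 8.01 and 8.30. The MS difference from PLA was 0.26 for Mid2 (limma adjusted p = 0.237) and 0.02 for Nol10 (limma adjusted p = 0.953).

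**Figure D2:**
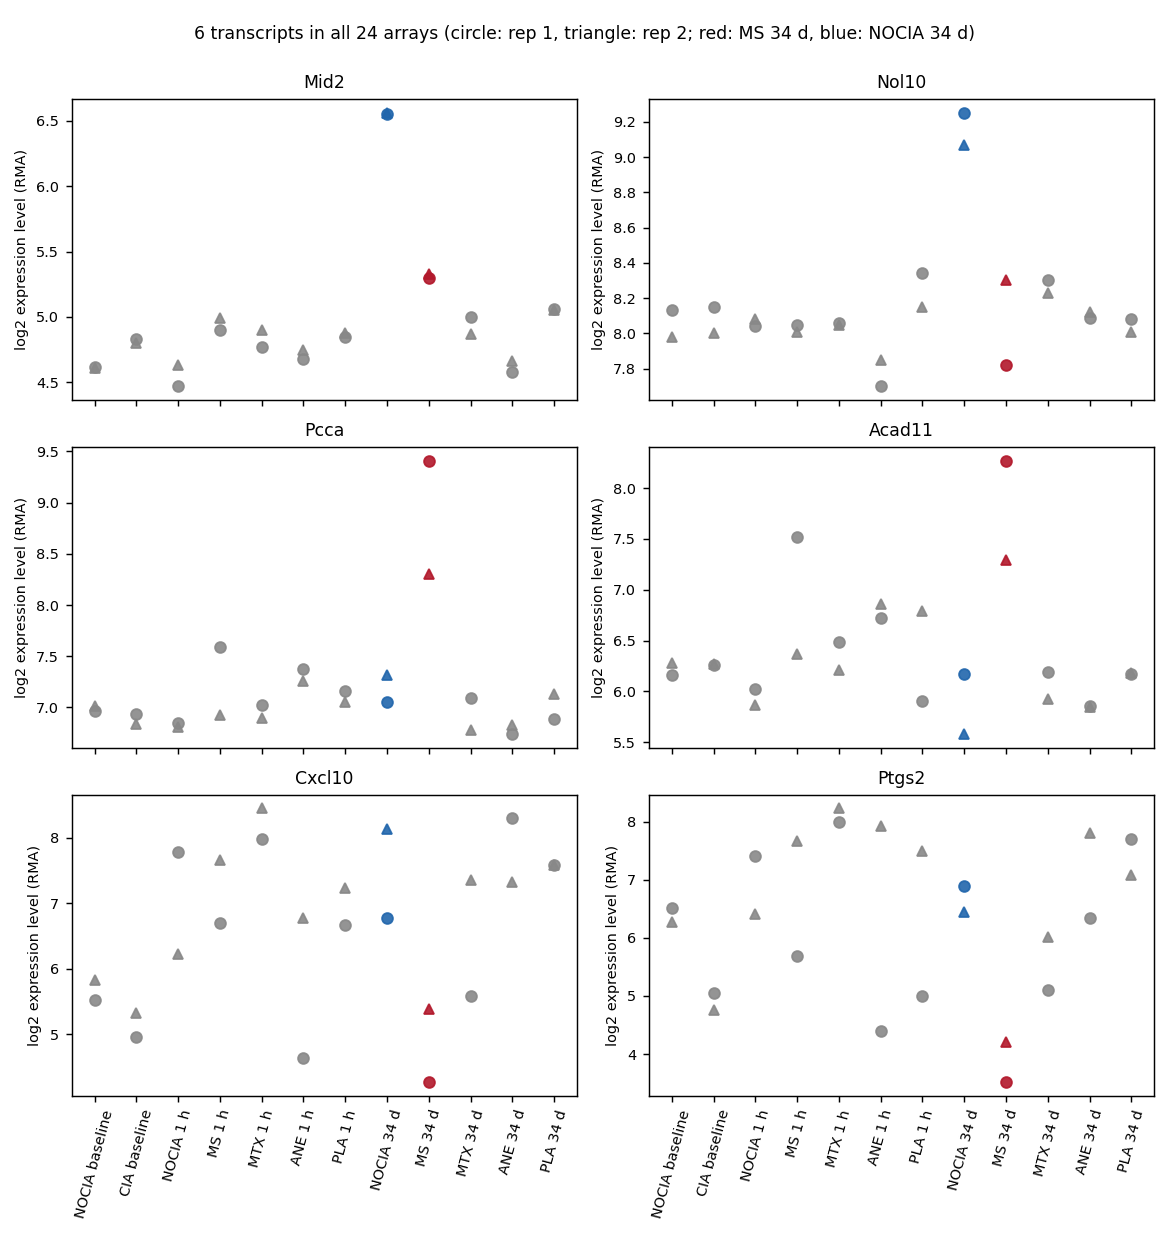
Log2 levels of Mid2, Nol10, Pcca, Acad11, Cxcl10 and Ptgs2 on all 24 arrays by group (circle replicate 1, triangle replicate 2; red MS at 34 days, blue NOCIA at 34 days, grey all others; the vertical axes differ between panels and do not start at 0). For Mid2 and Nol10 the blue points stand above the rest, for Pcca the red points do, with 9.41 and 8.30 against at most 7.59 elsewhere.

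This arrangement was frequent. In 862 of 11061 genes (7.79%) both day-34 NOCIA arrays lay above all 22 other arrays, and in 313 (2.83%) below all of them. Both day-34 MS arrays lay above all others in 46 genes (0.416%) and below all others in 115 (1.04%). Among the 645 genes lower in MS at the study's thresholds (5.83% of all genes), the NOCIA pair topped the series in 315 and the MS pair was lowest in 13. Among the 282 genes higher in MS at these thresholds (2.55%), the NOCIA pair was lowest in 19 and the MS pair highest in 2. A gene that differs between the pairs has more occasion to lie at an end of the series, so these shares describe the lists and were not tested.

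Of the 15 genes named as lower by the strength of the limma statistic, Mid2 and Nol10 fell and the other 13 were not called, with limma adjusted p from 0.0552 to 0.0786. In 14 of the 15 the NOCIA pair topped the series. The 15 were picked by their distance between MS and NOCIA, and the filter can be met by the NOCIA pair alone. This count is therefore partly built in and was not tested. Grhl1, a grainyhead transcription factor of epithelia, was at 5.99 and 5.35 in NOCIA against 4.39 and 4.22 in MS. On the other 20 arrays Grhl1 lay between 3.49 and 4.32, below the array medians of 5.49 to 5.58 over all probe sets. Rest, the repressor that keeps neuronal genes silent in other cells, was at 7.19 and 6.51 against 5.24 and 5.63. Slc7a1, the carrier that brings arginine and lysine into cells, was at 9.76 and 9.18 against 7.93 and 8.03. These 3 differed by -1.36 ± 0.21, -1.41 ± 0.23 and -1.49 ± 0.25 (log2), with both MS arrays below both NOCIA arrays in each.

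Eif2ak2 encodes the kinase PKR, which halts translation on meeting double-stranded RNA. It was at 6.51 and 6.76 in NOCIA against 5.23 and 5.58 in MS (log2 difference -1.23 ± 0.23). Gpam, which starts glycerolipid synthesis in mitochondria, was at 7.05 and 6.80 against 4.52 and 5.81. The zinc carrier Slc30a4 was at 8.06 and 8.16 against 6.53 and 7.07, and Sec24d, a coat protein of vesicles leaving the endoplasmic reticulum, was at 8.46 and 8.22 against 7.04 and 7.39. Uba6, an enzyme that activates ubiquitin, was at 6.84 and 6.47 against 4.83 and 5.52. PLA rats were at 5.57 and 5.88 for Uba6 and at 7.27 and 7.21 for Sec24d, on the side of MS in both genes. The probe sets of Sox4, a transcription factor of early B and T cell development, disagreed: the named one differed by -1.69 ± 0.33 and the others by -0.52, 0.33, -2.37, 0.37 and -2.13. Pacrgl, Zscan22 and Cnksr3, the remaining named genes with the NOCIA pair on top, differed by -1.38, -1.29 and -1.50. Pacrgl was low even in NOCIA, at 5.33 and 5.30, below the array medians.

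Pkib was the exception among the 15. It encodes an inhibitor of protein kinase A, and was at 7.97 and 8.21 in NOCIA and at 5.97 and 6.72 in MS (log2 difference -1.74 ± 0.30, limma adjusted p = 0.0774). Every other array, healthy or arthritic, lay between 7.01 and 8.51. Here the MS pair stood below the whole series, and a further probe set of the gene differed by -1.49.

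No gene was called higher in MS. The 15 named as higher had limma adjusted p from 0.0636 to 0.0832. Pcca, the biotin-bearing subunit of propionyl-CoA carboxylase that breaks down odd-chain fatty acids and branched amino acids, was at 7.05 and 7.32 in NOCIA and at 9.41 and 8.30 in MS (log2 difference 1.67 ± 0.28, 3.19-fold, limma adjusted p = 0.0636). Both MS arrays stood above all other arrays, of which the highest was at 7.59. Acad11, an acyl-CoA dehydrogenase that also oxidises fatty acids, was at 6.17 and 5.58 in NOCIA against 8.27 and 7.29 in MS (1.90 ± 0.36). The other day-34 arthritic arrays lay between 5.85 and 6.19 for Acad11, so that MS was apart from these arms too, although 1 array of the 20 others reached 7.52. Bnip3, a mitochondrial protein that marks mitochondria for removal by autophagy, was at 6.39 and 6.69 against 9.14 and 8.27 (2.16 ± 0.55), and Idh1, the cytosolic isocitrate dehydrogenase that yields NADPH, was at 6.14 and 6.76 against 7.69 and 7.38. PLA arrays were at 7.58 and 8.05 for Idh1, as high as MS, but at 6.43 and 7.04 for Bnip3.

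Eif4ebp1 was the other named gene in which the MS pair topped the series. It encodes a repressor of cap-dependent translation that mTOR inactivates, and was at 9.20 and 9.31 in NOCIA and at 10.92 and 10.37 in MS (log2 difference 1.39 ± 0.33), against at most 10.23 elsewhere. Cnrip1, a protein that binds the cannabinoid receptor CB1, was at 6.59 and 6.42 in NOCIA against 9.21 and 7.47 in MS (1.84 ± 0.45), with the day-34 arthritic arrays of the other arms between 6.03 and 6.80. Akap7, an anchor of protein kinase A, was at 6.03 and 5.92 against 7.80 and 6.85.

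In 7 of the 15 the NOCIA pair was instead the lowest of the series. These genes too were picked by their distance between MS and NOCIA, and the count was not tested. Serpinb9, the inhibitor that shields lymphocytes from their own granzyme B, was at 7.71 and 7.97 in NOCIA and at 10.06 and 8.99 in MS (log2 difference 1.69 ± 0.42), but PLA was at 9.52 and 9.58. Vmp1, a membrane protein needed for autophagosomes, was at 8.85 and 9.04 against 10.55 and 9.83, with PLA at 9.22 and 9.55. Pecam1, the adhesion molecule CD31 of endothelium, platelets and leukocytes, was at 7.79 and 7.83 against 9.61 and 8.35, with PLA at 8.28 and 8.15. Fkbp1a, Dstyk, Idh1 and the uncharacterised LOC100909928 made up the 7, with log2 differences of 1.05, 1.16, 1.08 and 1.33. The remaining named genes, Tg and Colgalt1, differed by 1.52 and 1.14, and further probe sets of Colgalt1 by 0.08, -0.17 and -0.35.

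Among the groups of genes, inflammatory genes were lower in MS than in NOCIA of the same day. No member of the 45 gene lists was called in this comparison, so the lists are described by their counts and medians. Over all 11061 genes, 4623 differences were above 0 and 6438 below, the background for every count of signs in a list. The 32 measured inflammatory genes had a median log2 difference of -1.14 against -0.142 over all genes. In 23 of them both MS arrays lay below both NOCIA arrays, a position held by 32% of all genes, and in 6 above both, against 23.6%. By array the list's median was -1.457 in MS replicate 1 and -0.637 in MS replicate 2, relative to the NOCIA mean, while the PLA arrays were at 0.153 and -0.013 and the MTX arrays at -0.721 and -0.189. At the study's thresholds 12 of the 32 were lower and 0 higher, against 5.83% and 2.55% of all genes. Outside day 34 the list was at -0.423 and -0.61 in healthy rats at baseline and at -0.001 and -0.075 at 1 h. Arthritic rats before therapy were at -0.925 and -0.862, between the MS arrays.

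The members with the greatest differences were an enzyme and cytokines of the first hours of inflammation. Ptgs2, the inducible cyclooxygenase that makes prostaglandins, was at 6.89 and 6.44 in NOCIA and at 3.52 and 4.21 in MS (log2 difference -2.80 ± 0.95, limma adjusted p = 0.109). Both MS arrays lay below the other 22 arrays, which went down to 4.39, and PLA was at 7.70 and 7.09. Cxcl10, the interferon-induced chemokine that draws activated T cells, was at 6.77 and 8.14 in NOCIA against 4.27 and 5.38 in MS (-2.63 ± 0.72). Il1b, the cytokine IL-1 beta, was at 11.94 and 11.42 against 9.64 and 9.56 (-2.08 ± 1.04, limma adjusted p = 0.191). The MS arrays agreed closely with each other for Il1b, as they did for Cxcl2, a neutrophil-drawing chemokine, at 9.23 and 9.30 against 11.60 and 10.75 in NOCIA (-1.91 ± 0.88). PLA was at 12.35 and 12.30 for Il1b and at 12.11 and 12.05 for Cxcl2, above the healthy arrays. The SE of these genes is large because it pools the spread between arrays of 1 group over the whole series.

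Chemokine and adhesion genes followed. Ccl3, a chemokine of monocytes and macrophages, was at 11.75 and 11.73 in NOCIA and at 9.32 and 10.36 in MS (log2 difference -1.90 ± 0.42, limma adjusted p = 0.0786). Icam1, the endothelial and leukocyte adhesion molecule that LFA-1 binds, was at 11.15 and 11.11 against 9.0 and 9.96, and the NOCIA pair was the highest of the series. Il10, a cytokine that restrains inflammation, was also lower, at 6.35 and 7.16 against 5.03 and 5.23. Tnf itself was at 6.23 and 6.18 in NOCIA and at 5.53 and 5.69 in MS (-0.60 ± 0.75, limma adjusted p = 0.575), with PLA at 6.97 and 6.79, so the 2 pairs did not overlap but the difference was smaller than its error.

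The inflammatory list holds 5 measured genes of NF-kB subunits and IkB proteins, none of them called. Nfkb1, the precursor of p50, was at 9.49 and 9.60 in NOCIA and at 8.38 and 8.99 in MS (log2 difference -0.86 ± 0.27). Nfkb2, the precursor of p52, was at 9.31 and 8.81 in NOCIA and at 7.71 and 7.96 in MS (log2 difference -1.23 ± 0.29), and its partner Relb at 8.71 and 8.28 against 7.46 and 7.78 (-0.88 ± 0.21). In Nfkb2 and Relb the NOCIA pair topped the series, and PLA lay nearer to MS, at 8.21 and 8.13 for Nfkb2 and at 7.45 and 7.48 for Relb. Nfkbia, which encodes the inhibitor IkB alpha, was at 13.38 and 13.24 against 11.17 and 12.70, and Nfkbiz, a nuclear member of the IkB family, at 11.82 and 11.73 against 9.58 and 11.01. For these inhibitors PLA was as high as NOCIA, with 13.41 and 13.36 for Nfkbia and 12.07 and 12.03 for Nfkbiz. Tnfaip3, the enzyme A20 that restrains NF-kB signalling, was at 13.35 and 13.20 against 11.79 and 12.77, and Birc3, an inhibitor of apoptosis that NF-kB induces, was at 10.36 and 9.71 against 8.38 and 9.24.

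**Figure D3:**
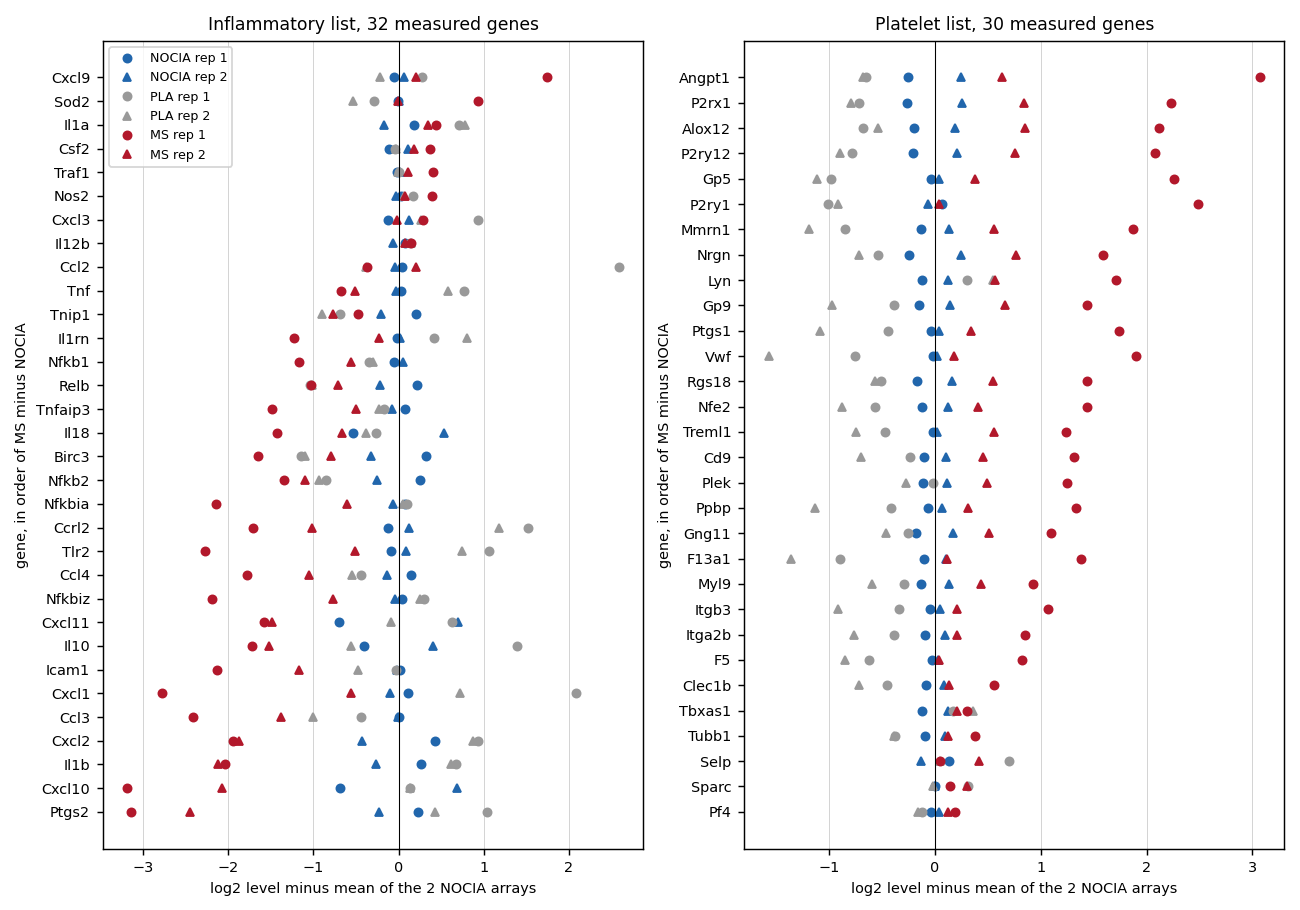
Log2 level of each measured gene of the inflammatory list (32 genes) and the platelet list (30 genes) minus the mean of the 2 NOCIA arrays, for NOCIA (blue), PLA (grey) and MS (red), circles for replicate 1 and triangles for replicate 2. The lower inflammatory genes have both red points left of 0, and all 30 platelet genes have a mean above 0 in MS, with MS replicate 1 farthest from 0 in most.

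Promoters of the inflammatory genes are shown because several members lay on the same side and NF-kB motifs are known in this family. A common form of the NF-kB motif, GGG and TTTCC parted by any 2 bases, was searched on both strands in 300 bases around each RefSeq start site, most of them before it (build GRCr8). They occurred in 512 of 33469 promoters (1.53%) and in 8 of the 23 inflammatory members that had a promoter in the table, namely Cxcl2, Cxcl1, Nfkbiz, Nfkbia, Nfkb2, Tnfaip3, Nfkb1 and Il1rn. Those of Cxcl2 at chr14:17467206-17467505 on the minus strand, Cxcl1 at chr14:17479272-17479571 on the minus strand and Nfkbiz at chr11:58251471-58251770 on the plus strand read 5' to 3' as follows, from RefSeq, with the matches in capitals.
Cxcl2: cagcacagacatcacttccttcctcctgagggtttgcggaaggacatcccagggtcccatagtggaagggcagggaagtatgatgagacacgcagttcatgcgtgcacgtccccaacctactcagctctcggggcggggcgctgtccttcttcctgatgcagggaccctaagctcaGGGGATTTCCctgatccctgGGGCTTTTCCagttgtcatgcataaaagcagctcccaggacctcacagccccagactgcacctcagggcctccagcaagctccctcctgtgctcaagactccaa
Cxcl1: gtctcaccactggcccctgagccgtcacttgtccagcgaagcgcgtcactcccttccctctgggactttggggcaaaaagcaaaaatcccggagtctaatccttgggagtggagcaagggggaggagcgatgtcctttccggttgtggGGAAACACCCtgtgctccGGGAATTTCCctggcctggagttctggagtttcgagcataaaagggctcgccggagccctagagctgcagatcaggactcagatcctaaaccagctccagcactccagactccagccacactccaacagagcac
Nfkbiz: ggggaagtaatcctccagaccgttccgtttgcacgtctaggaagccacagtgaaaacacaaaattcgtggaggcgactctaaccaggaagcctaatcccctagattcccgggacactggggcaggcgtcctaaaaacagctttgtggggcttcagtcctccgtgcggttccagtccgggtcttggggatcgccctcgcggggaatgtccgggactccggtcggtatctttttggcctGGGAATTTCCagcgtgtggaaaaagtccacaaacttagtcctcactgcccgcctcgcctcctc
Cxcl2 and Cxcl1 each hold 2 matches and Nfkbiz 1. A match is a description of the letters and not evidence of binding. Cxcl1, a neutrophil-drawing chemokine like Cxcl2, was at 8.24 and 8.03 in NOCIA and at 5.35 and 7.58 in MS (log2 difference -1.67 ± 1.02, limma adjusted p = 0.264), with PLA at 10.22 and 8.86.

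Transcripts that respond fast to stimulation lay on the same side. The 26 immediate early genes had a median log2 difference of -0.94, with 10 lower and 0 higher at the study's thresholds and 19 with both MS arrays below both NOCIA arrays. Over all genes these shares were 5.83%, 2.55% and 32%. By array their median was -1.470 in MS replicate 1 and -0.425 in MS replicate 2, against 0.052 and -0.021 in PLA. Fosb, a subunit of the transcription factor AP-1, was at 8.81 and 8.28 in NOCIA and at 6.26 and 7.49 in MS (-1.67 ± 0.56), and its relative Fos at 11.36 and 11.35 against 9.05 and 10.60. Jun, their partner, was at 11.38 and 11.13 against 8.98 and 10.26. PLA separated these subunits: it was at 9.21 and 8.57 for Fosb, level with NOCIA, and at 9.89 and 9.58 for Jun, level with MS. Ier5, a regulator of the heat shock response, was at 11.65 and 11.31 against 9.64 and 10.68 (-1.32 ± 0.29, limma adjusted p = 0.0786), with the NOCIA pair on top of the series. Egr1 was at 8.97 and 8.15 against 7.05 and 7.87 and Atf3, a stress-induced repressor, at 7.74 and 7.85 against 7.12 and 6.68.

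The 16 genes of Toll-like receptor signalling, through which monocytes sense microbial products, had a median of -0.61, with 3 lower and 0 higher at the study's thresholds, beside 5.83% and 2.55% of all genes. Irak2, a kinase of this pathway, was at 8.94 and 8.56 in NOCIA and at 6.64 and 7.62 in MS (log2 difference -1.62 ± 0.37), and Traf6, the ubiquitin ligase that acts after it, at 11.22 and 10.73 against 9.17 and 9.98 (-1.40 ± 0.32, limma adjusted p = 0.0786 for each). The PLA arrays had list medians of 0.253 and 0.251, above both NOCIA arrays, while both MS arrays were below them at -1.276 and -0.130. The 16 glucocorticoid-response genes had a median of -0.82 (-1.365 and -0.299 by MS array), with 2 lower at the study's thresholds, beside 5.83% of all genes. The ANE arrays were at -0.429 and -0.366 for this list and the PLA arrays at -0.113 and -0.025.

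Genes of antigen presentation by MHC class II had the lowest median of the lists in MS replicate 1. All 8 were below 0, with a median of -1.22, and 5 of 8 were lower at the study's thresholds, beside 5.83% of all genes. Most of that came from 1 array: the list's median was -2.113 in MS replicate 1 and -0.300 in MS replicate 2, against 0.347 and 0.041 in PLA. RT1-Db1, a beta chain of the rat class II molecule, was at 11.75 and 11.52 in NOCIA and at 9.52 and 10.95 in MS (log2 difference -1.40 ± 0.38, limma adjusted p = 0.0934). RT1-Da, an alpha chain, was at 13.52 and 13.25 against 11.27 and 12.76, and RT1-Ba, the alpha chain of the other class II molecule, at 11.52 and 12.56 against 9.48 and 11.55. The NOCIA and MS arrays therefore overlapped for RT1-Ba. Cd74, the invariant chain that guides class II molecules through the cell, was at 13.64 and 13.56 against 11.56 and 13.28.

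Of 35 interferon-stimulated genes, 29 were below 0 and 6 above, beside 6438 and 4623 of all 11061 genes, with a median of -0.71. At the study's thresholds 4 were lower and 2 higher, beside 5.83% and 2.55% of all genes, and 20 had both MS arrays below both NOCIA arrays and 1 above, beside 32% and 23.6%. Ifit2, an antiviral RNA-binding protein, was at 7.84 and 9.11 in NOCIA and at 5.72 and 7.04 in MS (log2 difference -2.09 ± 0.80), and Ifit3 at 8.30 and 9.19 against 6.27 and 6.93 (-2.15 ± 1.13). Irf1, the factor that carries the interferon gamma response, was at 11.26 and 11.0 against 9.0 and 10.56. Against these, Gbp2, a guanylate-binding protein that attacks vacuoles of pathogens, was at 9.21 and 9.42 in NOCIA and at 11.41 and 9.68 in MS, and Lgals3bp, a secreted glycoprotein, at 8.74 and 9.62 against 11.58 and 9.62. In both, MS replicate 2 lay at or just above the higher NOCIA array, and MS replicate 1 lay far above it.

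Neutrophil markers, which the gradient should reduce, moved with the inflammatory genes. The 13 measured had a median log2 difference of -0.86, with MS arrays at -1.341 and -0.860, PLA at 0.000 and 0.257 and MTX at -0.309 and -0.469. Of them 1, Lcn2, was lower at the study's thresholds, and 8 had both MS arrays below both NOCIA arrays and 2 above, beside 5.83%, 32% and 23.6% of all genes. S100a8 and S100a9 encode the subunits of calprotectin. S100a8 was at 11.72 and 11.25 in NOCIA against 9.63 and 10.36 in MS (-1.49 ± 0.96, limma adjusted p = 0.284), and S100a9 at 13.22 and 12.84 against 11.27 and 11.94. Mmp9, the granule gelatinase, was at 6.31 and 5.85 against 5.36 and 5.09, and its MS arrays were the lowest of the series. Lcn2, which withholds iron from bacteria, was at 5.36 and 7.17 against 4.23 and 3.85, but PLA was at 4.26 and 3.85. Neutrophils also make Il1b, Cxcl2 and Ptgs2, and the part of these cells in the inflammatory values was not tested.

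Platelet genes were higher on both MS arrays than in NOCIA of the same day. All 30 measured had a positive difference, the median was 0.89, and in 28 both MS arrays lay above both NOCIA arrays, against 23.6% of all genes. At the study's thresholds 2 were higher, Angpt1 and Lyn, and 0 lower, beside 2.55% and 5.83% of all genes. By array the list's median was 1.361 in MS replicate 1 and 0.409 in MS replicate 2, whereas the PLA arrays were at -0.449 and -0.730, the ANE arrays at 0.057 and -0.615 and the MTX arrays at 0.408 and -0.717. MS replicate 2 and MTX replicate 1 thus had nearly the same platelet level. Arrays of 1 group also lay far apart at 1 h, at 1.084 and -0.41 in MS, 0.774 and -0.203 in ANE and -0.406 and 0.772 in PLA. At baseline the list lay between -0.611 and -0.206. Angpt1, the Tie2 ligand that platelets release, was at 7.55 and 8.05 in NOCIA and at 10.87 and 8.43 in MS (log2 difference 1.85 ± 0.74, limma adjusted p = 0.139), with PLA at 7.15 and 7.12. P2rx1, an ATP-gated channel of platelets, was at 9.49 and 10.01 against 11.98 and 10.59, and P2ry12, the ADP receptor that clopidogrel blocks, at 9.67 and 10.09 against 11.96 and 10.64. The adhesion genes differed less, with Vwf, von Willebrand factor, at 10.57 and 10.61 against 12.49 and 10.77 and Itga2b, the fibrinogen receptor subunit, at 12.98 and 13.17 against 13.93 and 13.28. Pf4, platelet factor 4, was at 14.48 and 14.55 against 14.71 and 14.64, but this probe set lay between 14.22 and 14.71 on all 24 arrays, near the highest value of the table at 15.02, and has little room to show a difference. Lyn, a Src-family kinase that B cells and monocytes use too, was at 7.46 and 7.70 against 9.29 and 8.15, and the NOCIA pair was the lowest of the series.

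Erythroid genes had a median of 0.67, at 0.536 and 0.487 in the MS arrays, but the NOCIA arrays themselves were apart at -0.304 and 0.304. The ANE arrays reached 0.771 and 0.578. Xk, a membrane protein of red cells that carries the Kx antigen, was at 6.80 and 7.28 in NOCIA and at 10.71 and 8.95 in MS (log2 difference 2.78 ± 0.94, limma adjusted p = 0.108), with PLA at 7.20 and 7.21. Rhag, the ammonia channel of the Rh complex, was at 8.31 and 8.40 against 10.76 and 9.44, and Gata1, the factor of both erythroid and megakaryocytic cells, at 7.29 and 7.77 against 10.23 and 8.39. Alas2, the first enzyme of erythroid haem synthesis, was at 10.85 and 12.31 against 11.42 and 12.10, so that the pairs overlapped. The probe set of Hbb, a haemoglobin chain, lay between 14.56 and 14.86 on all 24 arrays, near the highest value of the table, and has little room to show a rise. In 4 of 19 erythroid genes the difference was below 0.

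The 8 stromal and endothelial markers that passed the filter, of 13 on the array, were all above 0, with a median of 0.61 and MS arrays at 0.827 and 0.351. Besides Pecam1, given above, Kdr, the VEGF receptor 2, was at 5.60 and 6.06 in NOCIA and at 7.83 and 6.47 in MS (log2 difference 1.32 ± 0.50, limma adjusted p = 0.127), with PLA at 5.05 and 4.78. Of 19 coagulation and fibrinolysis genes 12 were above 0, beside 4623 of all 11061 genes. Their median was 0.43, and 2 were higher at the study's thresholds, beside 2.55% of all genes. Serpine2, an inhibitor of thrombin, was at 4.83 and 4.93 in NOCIA and at 7.80 and 5.32 in MS, and Tfpi, the inhibitor of the tissue factor pathway, at 5.29 and 5.18 against 6.45 and 5.90 (0.94 ± 0.20, limma adjusted p = 0.0786). F3, tissue factor itself, which monocytes make on activation, was at 5.66 and 4.64 against 3.88 and 3.91. PLA was at 6.20 and 6.97 for F3, above both. Whether the platelet, erythroid and endothelial values reflect carry-over in the gradient was not tested.

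Lymphocyte and monocyte markers depended on the array. The T cell list was at -1.145 in MS replicate 1 and 0.129 in MS replicate 2, and the monocyte list at -1.486 and 0.049, so that their medians over both arrays, -0.50 and -0.58, turned sign without MS replicate 1. Cd3e, a subunit of the T cell receptor complex, was at 11.18 and 11.06 in NOCIA and at 9.74 and 11.31 in MS, and Gata3, the factor of type 2 helper cells, at 9.37 and 9.67 against 11.23 and 9.76. Cd14, the monocyte co-receptor of lipopolysaccharide, was at 11.08 and 10.73 against 8.87 and 10.40, with PLA at 11.58 and 11.87. The MS arrays did not agree on either cell type.

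Killer cell genes gave a different picture. The NK and cytotoxic list was at -0.420 and 0.271 in MS, around the NOCIA arrays at -0.135 and 0.135, whereas the PLA arrays were at 1.278 and 0.874 and the ANE arrays at 0.901 and 0.690. Healthy arrays of earlier times were above this NOCIA pair, at 1.358 and 1.171 at baseline and at 2.097 and 0.365 at 1 h. Ncr1, the NK cell receptor NKp46, was at 5.88 and 6.14 in NOCIA, at 6.09 and 7.33 in MS and at 8.48 and 8.44 in PLA. Gzmb, granzyme B, was at 8.57 and 9.15 in NOCIA, at 8.72 and 9.43 in MS and at 11.17 and 10.57 in PLA, and Prf1, perforin, at 10.75 and 11.04, at 10.45 and 11.51 and at 12.60 and 12.25. Healthy rats at baseline were near PLA, at 10.72 and 10.58 for Gzmb and at 12.63 and 12.70 for Prf1. The day-34 MS and NOCIA arrays overlapped in all 3 genes, and PLA lay above all 4 of them in each. None of these differences from PLA passed the test (limma adjusted p = 0.179 for Ncr1 and Prf1 and 0.19 for Gzmb).

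B cell genes were lower on both MS arrays, at -0.749 and -0.130, with 8 of 14 having both MS arrays below both NOCIA arrays and 2 lower and 1 higher at the study's thresholds, beside 32%, 5.83% and 2.55% of all genes. Ebf1, the factor that commits cells to the B lineage, was at 8.63 and 8.40 in NOCIA and at 6.14 and 7.44 in MS (log2 difference -1.73 ± 0.42, limma adjusted p = 0.0832). Blnk, the adaptor of the B cell receptor, was at 9.56 and 9.22 against 8.08 and 8.40 (-1.15 ± 0.25), and the kinase Blk at 8.10 and 7.90 against 6.73 and 7.46. Cr2, the complement receptor of mature B cells, went the other way, at 6.87 and 6.96 against 8.72 and 7.67 (1.28 ± 0.33), and the NOCIA pair was the lowest of the series for it. The PLA arrays had list medians of 0.311 and 0.058.

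Genes of RNA and protein handling were lower too. Of 66 splicing factors 63 were below 0, 15 were lower and 0 higher at the study's thresholds, beside 5.83% and 2.55% of all genes, and the median was -0.72, at -1.172 in MS replicate 1 and -0.281 in MS replicate 2. The PLA arrays were at -0.176 and -0.183, the MTX arrays at -0.214 and -0.131 and the ANE arrays at -0.461 and -0.223. Healthy rats were at -0.272 and -0.205 at baseline and at -0.08 and -0.373 at 1 h. MS replicate 2 was thus within the range of other arms and of earlier healthy rats. Relative to the same NOCIA pair, 52 of the 66 genes were below 0 in PLA and 53 in ANE. Srsf10, a splicing factor that responds to heat stress, was at 9.83 and 9.25 in NOCIA and at 7.5 and 8.49 in MS (log2 difference -1.54 ± 0.39), with PLA at 8.40 and 8.56. All 41 cytosolic ribosomal protein genes were below 0, yet none passed the study's thresholds: their median was -0.958 in MS replicate 1 and -0.056 in MS replicate 2. Rps3, one of them, was at 13.68 and 13.45 against 12.22 and 13.48. The ribosomal difference was thus that of 1 array. Hspa5, the chaperone BiP, was at 12.59 and 12.15 against 10.51 and 11.48, and Bbc3, the p53 target PUMA, at 9.89 and 9.46 against 8.20 and 8.80, and the NOCIA pair topped the series in both.

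The 16 circadian clock genes had a median of -0.58, at -0.726 and -0.332 in the MS arrays, with 4 lower at the study's thresholds, beside 5.83% of all genes. The ANE arrays were at -0.585 and -0.45, the MTX arrays at -0.389 and -0.227 and the PLA arrays at 0.01 and -0.229. Healthy rats were at -0.983 and -0.868 at baseline, below both MS arrays, and at -0.377 and -0.5 at 1 h. The day-34 NOCIA pair was thus above healthy rats of the earlier times for this list. Cry1 and Cry2 encode the cryptochromes that close the feedback loop of the clock. Cry2 was at 9.81 and 9.68 in NOCIA and at 8.24 and 8.92 in MS (log2 difference -1.17 ± 0.27, limma adjusted p = 0.0786), and Cry1 at 8.95 and 8.60 against 7.42 and 8.09. PLA was at 8.51 and 8.56 for Cry2 and at 8.05 and 8.05 for Cry1, and in both genes the NOCIA pair was the highest of all 24 arrays. The sources used here do not state the hour of each draw.

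**Figure D4:**
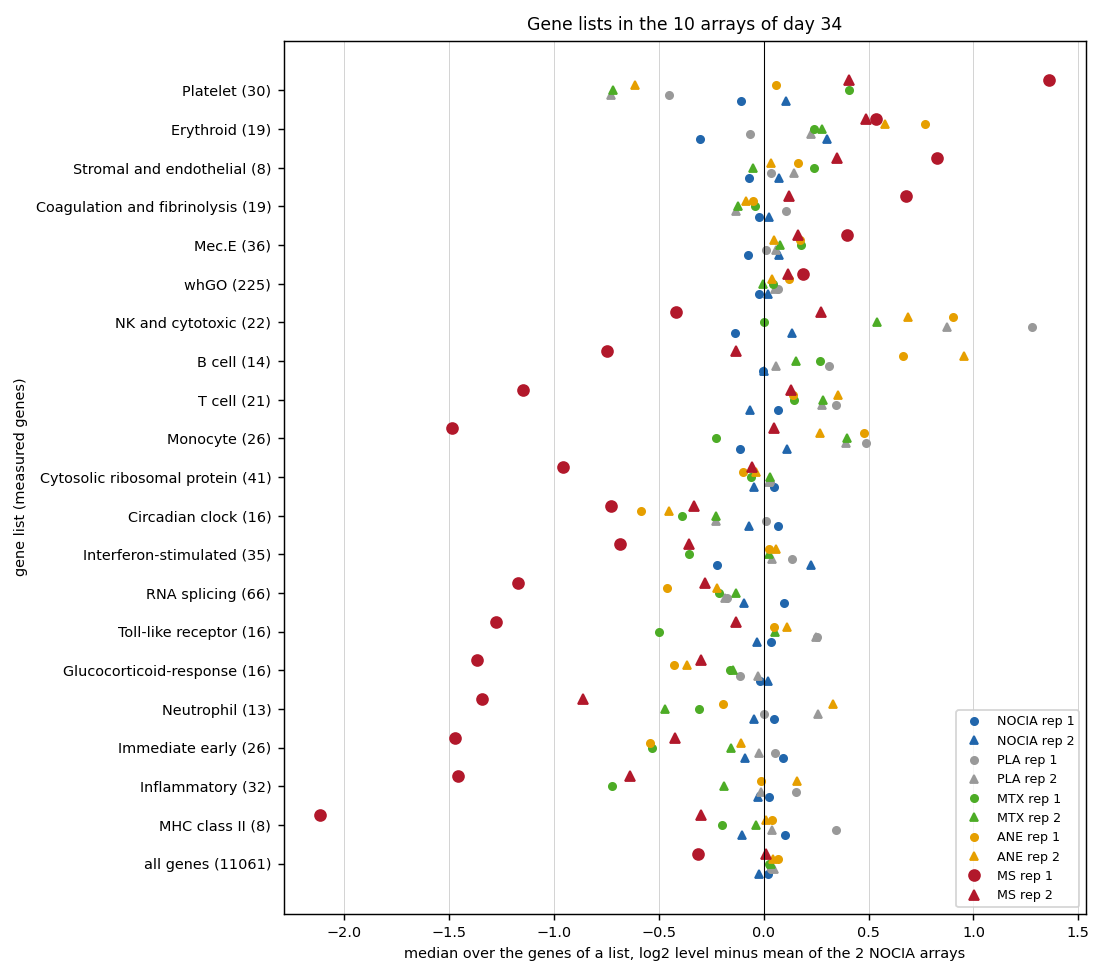
Median over the measured genes of each list (number in brackets) of the log2 level minus the mean of the 2 NOCIA arrays, for the 10 arrays of day 34; colour gives the arm, circles replicate 1 and triangles replicate 2. Platelet, erythroid and endothelial lists have both MS points right of 0, inflammatory, neutrophil and immediate early lists left of 0, and for T cell and monocyte lists MS replicate 1 alone is far from 0.

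Of the 45 lists, 12 had both MS arrays above both NOCIA arrays, 19 had both below, and 14 had neither. PLA and ANE also lay on 1 side in many lists. The NOCIA medians, centred on their own mean, lay near 0, so small differences decide some lists. Over all genes the median was 0.037 and 0.048 in PLA, above NOCIA at 0.022 and -0.022. These counts describe the lists and were not tested. The study's own lists of mechanical stimulation, wound repair and EMT had medians from -0.06 to 0.29, beside -0.142 over all genes. The latter was -0.311 on MS replicate 1 and 0.01 on MS replicate 2. The highest was the early mechanotransduction list, Mec.E, at 0.29 over 36 genes, with 0.395 and 0.164 in the MS arrays. It was at 0.180 and 0.078 in MTX, at 0.013 and 0.058 in PLA and at 0.174 and 0.05 in ANE. Its member Orai1, the pore of store-operated calcium entry, was at 8.12 and 8.31 in NOCIA and at 9.86 and 8.84 in MS. The early healing list, Heal.E, was at -0.06 over 61 genes. Of these 35 were below 0, a share close to that of all genes, with 6438 of 11061 below 0. At the study's thresholds 5 were lower and 3 higher, beside 5.83% and 2.55% of all genes. Fos and Nfkb2, given above, are among the lower. Panx1, a channel that releases ATP and one of the higher, was at 6.92 and 7.04 against 9.33 and 7.70 (log2 difference 1.53 ± 0.52, limma adjusted p = 0.108). Wound healing by gene ontology (whGO) was at 0.165 over 225 genes, of which 7 were higher and 9 lower at the study's thresholds, close to 2.55% and 5.83% of all genes. Its members moved both ways: Capn3, a muscle-type calpain, was at 5.19 and 5.29 against 7.13 and 6.56, whereas Kank1, a regulator of actin at adhesion sites, was at 7.40 and 6.52 against 4.81 and 5.18, and its MS arrays were the lowest of the series. Hif1a, the hypoxia factor, was at 12.37 and 12.11 against 10.69 and 11.38. The lists EMT, EMT.T2 and rwGO were at 0.14, 0.14 and 0.05. By array these 3 were of like size in PLA and ANE. EMT was at 0.115 and 0.077 in MS, at 0.096 and 0.044 in PLA and at 0.118 and 0.071 in ANE. EMT.T2 was at 0.045 and 0.132 in MS, at 0.099 and 0.071 in PLA and at 0.116 and 0.025 in ANE. The list of the inflammatory response by gene ontology (InflGO) was at -0.13, with 7 higher and 21 lower of 310, beside 2.55% and 5.83% of all genes. The medians of Heal.E and InflGO changed sign without the filter, and those of EMT.T2 and rwGO with the stricter filter.

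Set against the other arms of day 34, MS differed from PLA in 0 of 20709 probe sets (0%) and from MTX in 0 (0%) at an adjusted p under 0.05 in limma, with 4796 and 2981 probe sets at an unadjusted p under 0.05. Without MS replicate 2 the calls numbered 8118 against PLA and 7184 against MTX, and without MTX replicate 1 there was 1 call against MTX. At the study's thresholds 620 genes (5.61%) were higher and 412 (3.72%) lower in MS than in PLA, and 291 (2.63%) and 118 (1.07%) than in MTX. These comparisons share the MS arrays with the one against NOCIA, so that a gene far out on the MS arrays enters all 3. Pcca led both, with differences of 1.85 from PLA (limma adjusted p = 0.144) and 1.92 from MTX (limma adjusted p = 0.0935). LOC102554603 and Acad11 were also among the 5 named as higher in both, with Cnrip1 and Kdr against PLA and Serpini1 and Gypc against MTX. Of these, Gypc, a glycophorin that anchors the red cell skeleton, was at 10.14 and 9.65 in MS, at 7.77 and 8.70 in NOCIA and at 7.89 and 8.40 in PLA. Serpini1, neuroserpin, was at 10.69 and 9.69 in MS against 8.20 and 8.60 in NOCIA.

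In the genes named as lower in MS than in PLA, the mean of NOCIA lay between the other two. Tfec, a transcription factor of macrophages, was at 3.78 and 4.29 in MS, at 4.43 and 4.43 in NOCIA and at 5.29 and 5.51 in PLA. Bcl2a1, an anti-apoptotic protein that NF-kB induces, was at 9.03 and 9.87 in MS, at 10.63 and 10.47 in NOCIA and at 11.52 and 11.36 in PLA. Sdhaf4, an assembly factor of succinate dehydrogenase, was at 4.95 and 5.50, at 5.83 and 5.35 and at 6.51 and 6.80, and Crip2, a LIM-domain protein, at 5.47 and 5.91, at 5.88 and 6.23 and at 6.81 and 6.84. MS and NOCIA overlapped for Sdhaf4 and Crip2 and did not overlap for Tfec and Bcl2a1. Fcrla, a B cell protein related to Fc receptors, was lower than in PLA and in MTX, at 5.01 and 6.91 in MS against 7.05 and 7.08 in NOCIA and 8.10 and 7.65 in PLA. Against MTX the other named lower genes were Cwc25, Adgrv1, Rcbtb2 and Tgif1, and for Adgrv1 the MS arrays, at 4.88 and 5.43, were the lowest of the series. None of these 5 genes was called against MTX.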

How the data were processed

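The deposited values are log2 expression levels per probe set, made by the authors with RMA in the affy package from 24 Affymetrix rat expression arrays, per the labels. The sources used here state no version, and the study's methods also name MAS5, whose calls were not used here. RMA puts the probe intensities of all arrays on 1 distribution before summarising them, and compresses differences of dim probe sets. The summarised values can still differ between arrays, whose medians ran from 5.49 to 5.58. The table holds 31099 probe sets, of which 20832 carry 1 gene symbol, 436 several and 9831 none in the platform annotation. Control probe sets were left out, and a probe set was kept where 2 or more arrays had it above their 40th percentile. The 20709 kept were tested with limma 3.58.1 in R 4.3.3, with 1 coefficient for each of the 12 groups and no block (12 residual degrees of freedom), and Benjamini-Hochberg adjustment over all of them. A gene of a list was read from its probe set with the highest mean, which gave 11061 genes. Levels of different probe sets cannot be compared, and array number limits the precision.

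Named genes are the 15 highest and 15 lowest called probe sets against NOCIA with 1 symbol and without overlap, completed, where fewer were called, with those of greatest moderated statistic at the study's thresholds. For MS against PLA and against MTX 5 each way were taken, and list members were named with their lists. Members of the 45 lists (13 cell type, 25 function, 7 of the study) were chosen with earlier results of these data known. Arrays of a group were taken to come from separate rats. The replicate number was not taken as a pairing, since it was taken to name separate rats and only 2 pairs exist. Alternatives were the replicate block, fits on fewer arrays, other filters, quantile normalization, another variance model, array weights and leaving out arrays. The fit was tested on simulated data. Figures used matplotlib 3.10.9.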

Additional observations from a re-analysis of the deposited data

Results flagged for a closer look

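In 12 list medians, of 8 lists, both MS arrays lay on one side of both NOCIA arrays and both arrays of PLA, MTX or ANE on the opposite side, and none of these differences was tested for the list. Against PLA the platelet median was 1.513 higher in MS, and those of B cell genes (-0.693), dendritic cell genes (-0.432), Toll-like receptor genes (-0.805) and T cell checkpoint and costimulation genes (-0.45) were lower. Against MTX the B cell median was lower (-0.623) and the coagulation and fibrinolysis median higher (0.221). Against ANE, sampled under the other anaesthetic, the medians of B cell (-1.122), plasma cell (-0.611), MHC class I and peptide loading (-0.621) and Toll-like receptor genes (-0.807) were lower and that of coagulation and fibrinolysis higher (0.337). All are differences of log2 medians with 2 arrays a group. For MHC class I and peptide loading, MS replicate 2 lay only just below the lower NOCIA array, at -0.053 against -0.047. Other sides rest on margins as small. For dendritic cell genes PLA replicate 2 was at 0.047 against 0.043 in the higher NOCIA array. For coagulation MTX replicate 1 was at -0.039 against -0.024 in the lower one. For checkpoint genes MS replicate 2 was at -0.094 against -0.078, and for Toll-like receptor genes ANE replicate 1 was at 0.047 against 0.034.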

How the results depend on the processing

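The 3 probe sets called for MS against NOCIA became 1768 at the study's thresholds, 6 after quantile normalization, 1 with the stricter filter, 1 without the 4 arrays that earlier results had shown apart, and 0 when only the compared groups or only the arrays of day 34 were fitted or with array weights. Leaving out 1 array gave 1 to 9123 calls against NOCIA, 0 to 8118 against PLA and 0 to 7184 against MTX, the highest each time without MS replicate 2. The study's thresholds gave 1730 against PLA and 794 against MTX. With the replicate number as a block 2, 0 and 0 probe sets were called, and with the crossed pairing, chosen after seeing the data, 3 against NOCIA; deviations of same-numbered MS and NOCIA arrays correlated at -0.3. Mid2 was not called when only the compared groups (adjusted p = 0.476) or day 34 (adjusted p = 0.13) were fitted or with array weights (adjusted p = 0.386). Of 1374 values of named genes 8 reversed: Cd3e was at 0.193 without the 4 arrays, and over the left-out arrays Cd3e ran from -1.379 to 0.193, Alas2 from -0.551 to 0.906, Prf1 from -0.446 to 0.613 and Gzmb from -0.138 to 0.573. Without MS replicate 1 the medians of 9 of the 45 lists changed sign, among them T cell, monocyte, NK and InflGO lists. After quantile normalization 2 did. Without the filter 2 did, Heal.E and InflGO, and with the stricter filter 2 did, EMT.T2 and rwGO, so the sign of these lists depends on the filter. With 2 arrays a group, and 1 of the MS arrays far from the other, differences shown by MS replicate 1 alone have no second array behind them.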
